A study of Mus musculus with 12 samples.

Results

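H19, Meg3 and Rasgrf1 are mouse imprinted loci whose control regions carry DNA methylation on the chromosome inherited from the father. Their methylation was read here in 3 windows of the mm9 genome, chosen by position: chr7:149764000-149770000 for H19, chr12:110764000-110782000 for the Meg3 upstream region and promoter, and chr9:89760000-89778000 for the region upstream of Rasgrf1. A CpG dyad is a CpG with the reads of both strands summed. A dyad was kept where at least 1 library had 10 or more reads. The windows held 81 such dyads in 22 tiles of 1 kb, out of 2154830 dyads in the whole series. H19 had 20 dyads in 3 tiles, Meg3 had 42 in 11 tiles and Rasgrf1 had 19 in 8 tiles. In 17 of the 81 dyads every one of the 12 libraries had at least 10 reads.

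The libraries were reduced-representation bisulfite sequencing, which cuts DNA at MspI sites (CCGG) and reads the short fragments, so CpGs far from such sites are mostly not seen. The cells were LSK cells, the lineage-negative, Sca1-positive, cKit-positive stem and progenitor fraction of haematopoiesis, sorted from C57BL/6 mice carrying conditional mutations of haematopoietic tissue and taken at 6 months of age. There were 4 groups of 3 libraries each: Tet2-/- Nras G12D labelled leukemic, Tet2-/- Nras G12D labelled nonleukemic, Tet2-/- and Nras G12D. Every group therefore carried at least 1 mutation, and wild-type libraries were not analysed here. The leukemic state was read from the letter L in the sample titles together with the study's design text. The descriptions of the leukemic libraries also carry the letters BMT, which the labels do not spell out, so whether those cells passed through a transplanted host could not be told. The labels name neither the Cre driver nor whether the libraries of a group came from separate animals, so every p-value below measures the spread between libraries. Bisulfite data do not measure the sorted surface proteins, and the identity of the cells was not checked.

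At a paternally methylated imprint the mark is set in the male germ line and kept on that chromosome after fertilization, so that a region read from both chromosomes is expected near 50%. At H19, the unmethylated maternal control region binds the insulator protein CTCF, which keeps Igf2 from shared enhancers, and the long noncoding RNA H19 is transcribed from the maternal chromosome. At the Dlk1-Meg3 cluster, the intergenic control region and the Meg3 promoter are methylated on the paternal chromosome, and the long noncoding RNA Meg3 comes from the maternal one. Rasgrf1 encodes a guanine nucleotide exchange factor that activates Ras proteins, and its upstream region is methylated on the expressed paternal copy. In mice, the H19 and Dlk1-Meg3 imprints have been linked to the maintenance of long-term haematopoietic stem cells, and TET2 is an enzyme that oxidises 5-methylcytosine.

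The Meg3 promoter is shown because 5 of its 13 CpGs were read. The sequence is RefSeq's for build GRCm38.p6, chr12:109540746-109541045 on the plus strand, covering 250 bases before and 50 after the start, and capitals mark the CpGs read. The bases were placed on the mm9 positions of the libraries by the spacing of the CpGs alone, and only 1 offset in the window put all 5 dyads on CpGs.
Meg3 promoter: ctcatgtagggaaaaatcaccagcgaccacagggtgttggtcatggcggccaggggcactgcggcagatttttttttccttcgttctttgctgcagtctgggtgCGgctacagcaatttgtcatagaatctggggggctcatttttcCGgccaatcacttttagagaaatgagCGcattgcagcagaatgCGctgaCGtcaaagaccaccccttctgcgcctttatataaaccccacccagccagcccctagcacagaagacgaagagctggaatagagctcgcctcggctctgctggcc
The letters TGACGTCA, the palindromic cyclic AMP response element, occurred once, 57 bases before the start, and they hold the CpG at chr12:110779152. These 8 letters, searched on both strands, were present in 588 of 32851 RefSeq promoters of the same length (1.79%). The MspI site CCGG occurred once, overlapping the CpG at chr12:110779103, and was present in 52.8% of those promoters. The matches describe the letters only.

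Libraries held 96300485 to 199736369 reads at listed CpG positions. In the 4 tiles of the windows that could be tested, 90 to 839 reads per library stood behind a level, and 95% Wilson intervals of these levels were 0.521 to 19.6 points wide, with a median of 8.46 points. The reads carry no molecular identifiers, so these intervals cover counting error only. Some libraries stood apart. Tet2-/- replicates 1 and 2 and nonleukemic replicate 1 listed 251 to 360 positions on chromosome Y, against 2 to 18 in the other libraries. Single-library flips are CpG positions of 1 strand at which 1 library lay under 10% and all others over 70%, or the reverse. These numbered 3191 in leukemic replicate 3, 1015 in leukemic replicate 1, 955 in Tet2-/- replicate 2, and 0 to 172 in the other libraries. Results that rest on these libraries are given with and without them.

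Intermediate methylation was the most frequent class among the dyads read in at least 6 libraries. Of 39 such dyads, 27 averaged 20% to 80%, 5 averaged under 20% and 7 averaged over 80%. The H19 window had 10 of its 11 dyads in the intermediate class, the Meg3 window 13 of 21 and the Rasgrf1 window 4 of 7. Over all 81 dyads the counts were 33 intermediate, 22 under 20% and 26 over 80%, but 33 of the 81 were read in 1 library only. The flanks of equal width differed from one window to the next. The H19 window had a median of 55.9%, against 78.2% at 4 dyads below it. Of these 4 dyads, 3 also averaged 20% to 80%, and no dyad above the window was read in 6 libraries. The Meg3 window had a median of 49.2%, against 93.0% at 18 dyads above it and 1.31% at 2 dyads below it. The Rasgrf1 window had a median of 44.7%, against 93.8% at 6 dyads below it and 9.42% at 5 dyads above it.

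**Figure D1:**
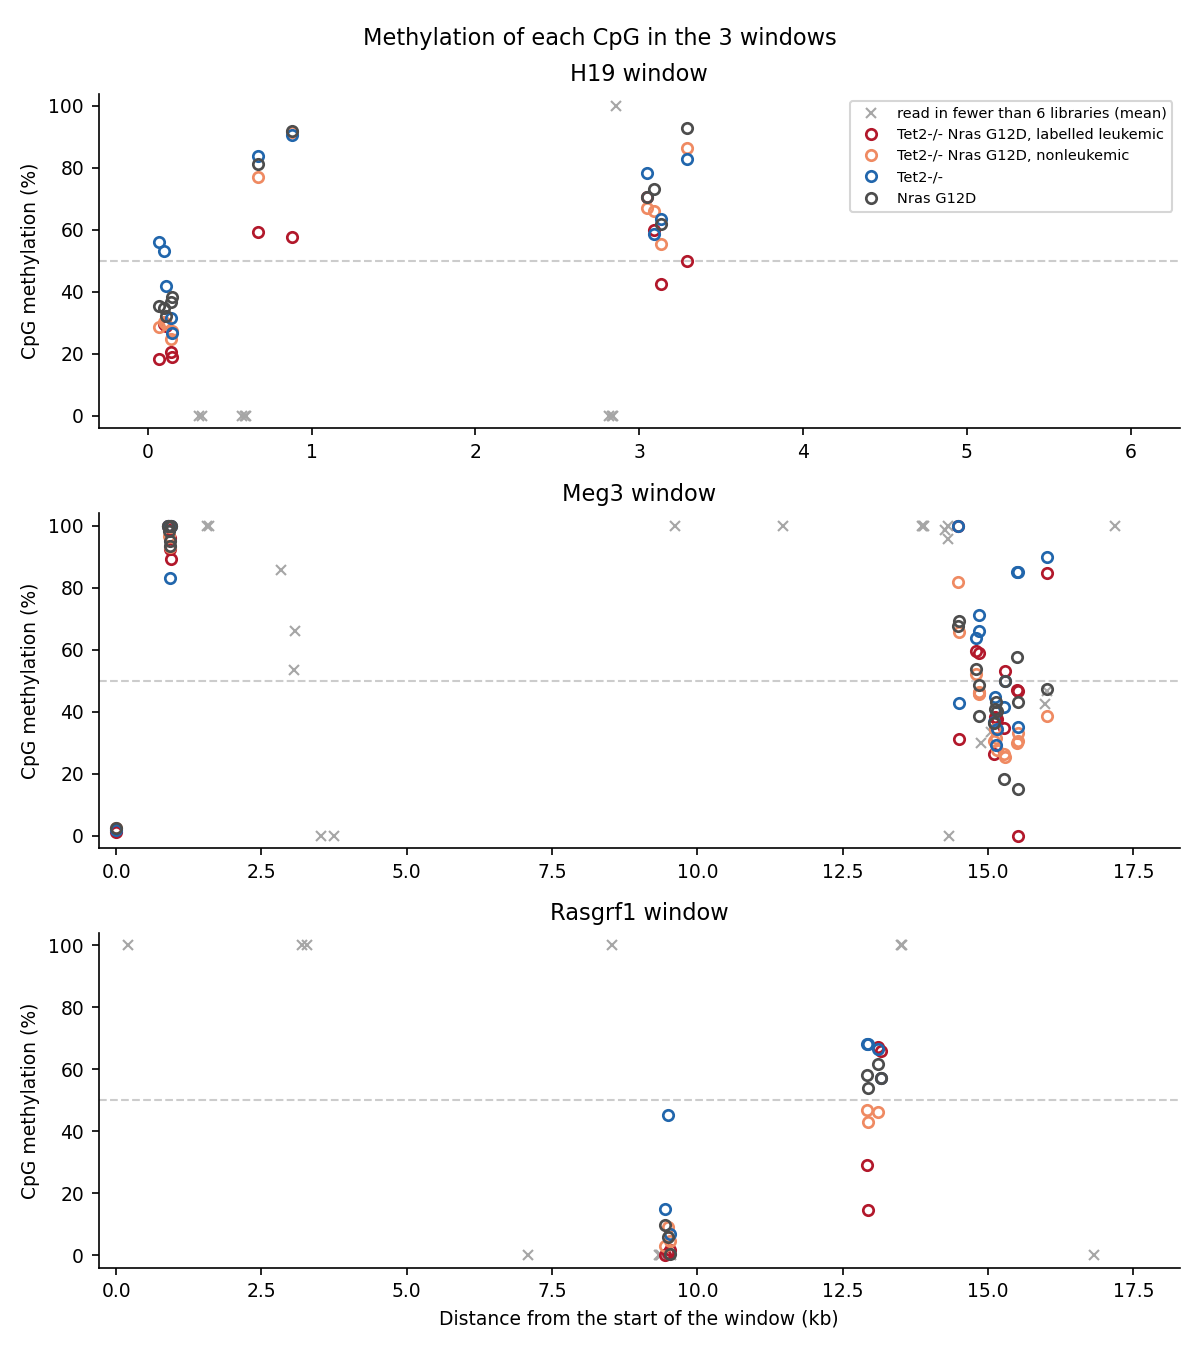
Methylation in percent (vertical axis) against the distance from the start of the window in kb (horizontal axis) for the H19, Meg3 and Rasgrf1 windows. Circles are group means at dyads read in at least 6 libraries, grey crosses are means of the other dyads, and the dashed line marks 50%. Circles of the Meg3 window lie near 0% at its first dyad and near 100% within the first kb. Close to the promoter most lie between these levels. Exceptions there are leukemic and Tet2-/- circles at 100% at 110778484 and a leukemic circle at 0% at 110779509. In the Rasgrf1 window the Tet2-/- circle at 45.2% stands above the other groups at its dyad.

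A tile was testable where at least 3 of its dyads were read in every library. Of the 4 testable tiles of the windows, 3 had a mean of 35% to 65%, against 4298 of the 81040 testable tiles of the series (5.30%). None of the 4 held 35% to 65% in every library, against 193 tiles of the series (0.238%). A call here needs an adjusted p below 0.05 and a difference of at least 10 points for a tile or 25 points for a dyad. Among the 4 tiles, 0 were called lower in leukemic than in nonleukemic libraries (3.88% of all tiles), 1 was called lower in leukemic than in Tet2-/- (7.52% of all tiles) and 0 were called lower in leukemic than in Nras G12D (1.98% of all tiles). None was called in nonleukemic against Tet2-/- (0% of all tiles), nonleukemic against Nras G12D (0.00247%) or Tet2-/- against Nras G12D (0%). None of the 17 dyads read in every library was called. Over all dyads of the series 0.0124% were called in leukemic against nonleukemic, 0.047% in leukemic against Tet2-/-, 0% in leukemic against Nras G12D, 0% in nonleukemic against Tet2-/-, and 0.000436% in each of the other 2 contrasts.

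The H19 window had 2 testable tiles. The tile chr7:149764000-149764999 has 7 dyads read in every library. Its level was 36.0%, 31.9% and 29.8% in leukemic libraries, 36.3%, 27.1% and 43.8% in nonleukemic, 47.7%, 60.4% and 30.3% in Tet2-/-, and 38.7%, 45.0% and 33.3% in Nras G12D libraries. All 4 groups overlapped, and no contrast passed the test. Within the tile, the 5 dyads at chr7:149764070-149764147 averaged 27.9% to 37.0%. The dyads at 149764673 and 149764880 averaged 75.3% and 83.0%, so the level changed within 1 kb. The dyad at 149764880 was unmethylated on all 27 reads of leukemic replicate 3, which allows up to 11.1%, against 100% and 73.0% in leukemic replicates 1 and 2 and 83.3% to 100% in the other groups.

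The tile chr7:149767000-149767999 was lower in each leukemic library than in every other library, but did not pass the test. Its level was 28.8%, 54.0% and 56.4% in leukemic libraries, 63.8%, 71.6% and 68.4% in nonleukemic, 73.0%, 61.0% and 69.2% in Tet2-/-, and 66.1%, 65.7% and 96.3% in Nras G12D libraries. The means were 46.4% ± 15.3 in leukemic, 68.0% ± 3.95 in nonleukemic, 67.7% ± 6.14 in Tet2-/- and 76.1% ± 17.6 in Nras G12D libraries (SD, n = 3 each). The leukemic range ended at 56.4% and the lowest other library lay at 61.0%. Each leukemic library lay below all others at 8.56% of tiles in the genome. In the quasi-binomial model over all tiles, leukemic minus nonleukemic was -21.5 points (Benjamini-Hochberg adjusted p = 0.125). Leukemic minus Tet2-/- was -21.3 points (adjusted p = 0.112) and leukemic minus Nras G12D was -29.6 points (adjusted p = 0.0979) in the same model. Non-overlap was frequent in the genome: it was found at 22.4% of tiles for leukemic against nonleukemic, 21.4% for leukemic against Tet2-/- and 17.6% for leukemic against Nras G12D. Tiles of a similar level, within 5 points, had median differences of -7.70, -8.78 and -5.65 points in these contrasts. Without leukemic replicate 1 the first difference was -12.7 points (adjusted p = 0.396) and the second -12.5 points (adjusted p = 0.360). Without leukemic replicate 3, Tet2-/- replicate 2 and Nras G12D replicate 3, the libraries with most flips in their groups, they were -20.4 points (adjusted p = 0.0438) and -23.7 points (adjusted p = 0.0470), which passed the test. That fit kept leukemic replicate 1, which had 1015 flips and the lowest level given above. It also took in the dyad at 149767047, which Tet2-/- replicate 2 did not read, so the dyads differ from those above. Leukemic minus Nras G12D was not called in that fit.

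The 3 dyads behind this tile did not move together within the leukemic group. At 149767092 leukemic replicates 1, 2 and 3 had 12.1%, 69.9% and 97.7%, and at 149767135 they had 7.69%, 20% and 100%. At 149767291 they had 75.9%, 60.3% and 13.8%, so the library that was lowest at the first of these dyads was highest at the last. The dyad at 149767291, with 30 to 91 reads per library, had the largest difference between group means among the H19 dyads read in every library. It averaged 50.0% ± 32.3 in leukemic, 86.3% ± 10.5 in nonleukemic, 82.8% ± 0.528 in Tet2-/- and 93.0% ± 6.39 in Nras G12D libraries (SD, n = 3 each). Leukemic minus Nras G12D was -43.0 points there and did not pass (quasi-binomial adjusted p = 0.360). The remaining H19 tile, chr7:149766000-149766999, was read in leukemic replicate 1 only, with 22.9% of 70 reads methylated over 4 dyads. The dyads at 149766818, 149766835 and 149766841 had 0% on 18 reads each, which allows up to 16.7%. The dyad at 149766857 had 100% on 16 reads, so no dyad of this tile was intermediate.

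Averaged over the 10 H19 dyads read in every library, leukemic libraries had 35.3%, 39.6% and 41.1%, nonleukemic 51.0%, 50.4% and 53.8%, Tet2-/- 62.5%, 63.0% and 51.1%, and Nras G12D 55.0%, 57.1% and 61.8%. The leukemic libraries lay below all others, as at 8.56% of tiles in the genome. The nonleukemic libraries lay below Nras G12D, groups that did not overlap at 12% of tiles in the genome. These shares are for 1 kb tiles with pooled reads, not for means over dyads. Over the 3 windows, groups did not overlap in 6 of the 18 contrasts of window means. The leukemic mean of 38.7% ± 3.0 stood 13.1 points under the nonleukemic mean of 51.7% ± 1.80, 20.2 points under the Tet2-/- mean of 58.9% ± 6.72 and 19.3 points under the Nras G12D mean of 57.9% ± 3.48 (SD, n = 3 each). Each of these differences had p = 0.1 in a two-sided exact permutation test, which cannot give less with 3 libraries a group, and an adjusted p of 0.3 over the 18 window contrasts. With reads pooled over the dyads in place of equal weights, leukemic minus Nras G12D was -12.1 points, and nonleukemic minus Nras G12D was -1.47 points with overlapping groups.

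Among dyads read in at least 6 libraries, the start of the Meg3 window held extreme levels and its end mostly intermediate ones. The dyad at chr12:110764001 averaged 1.99% over 12 libraries and never exceeded 5.34%. The 5 dyads at chr12:110764888-110764946 averaged 94.0% to 100% over the 11 libraries that read them. The next tiles were read in few libraries. The tile starting at 110766000 averaged 85.6% over 4 libraries. The tile starting at 110767000 averaged 54.8% over 4 libraries, which spanned 10.5% to 86.7%. The tiles starting at 110765000, 110773000, 110775000 and 110777000 were each read in 1 library, at 100%. At chr12:110778263 and 110778312, closer to the promoter, 5 libraries averaged 95.6% to 98.7%, at 110778484 8 libraries averaged 85.1%, and at 110778506 the same 8 averaged 56.6%. Past the promoter, the tile starting at 110780000 averaged 66.6% over 6 libraries, and the tile starting at 110781000 had 100% in 1 library.

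The testable tile of the Meg3 window, chr12:110778000-110778999, rests on the dyads at 110778801, 110778847 and 110778854. Its level was 41.8%, 63.3% and 62.2% in leukemic libraries, 62.8%, 32.7% and 47.2% in nonleukemic, 59.3%, 97.0% and 46.9% in Tet2-/-, and 48.7%, 51.7% and 44.5% in Nras G12D libraries. The means were 55.8% ± 12.1 in leukemic, 47.6% ± 15.1 in nonleukemic, 67.7% ± 26.1 in Tet2-/- and 48.3% ± 3.6 in Nras G12D libraries (SD, n = 3 each). All groups overlapped, and Tet2-/- replicate 2 alone stood near full methylation, at 95.3% to 100% of reads at each of the 3 dyads. Tet2-/- minus Nras G12D was 19.4 points (quasi-binomial adjusted p = 0.829), nonleukemic minus Tet2-/- was -20.2 points (adjusted p = 1) and leukemic minus Tet2-/- was -12.0 points (adjusted p = 0.240). Without Tet2-/- replicate 2 these were 4.80, -5.53 and 2.66 points, so the last turned round. The dyad at 110778854, with 17 to 118 reads, had the largest group difference among the dyads of the window read in every library. It averaged 65.9% ± 35.6 in Tet2-/- and 38.7% ± 13.1 in Nras G12D libraries (SD, n = 3 each), 27.2 points apart (quasi-binomial adjusted p = 0.947).

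The CpGs of the Meg3 promoter were intermediate and varied widely between libraries of a group. The 4 dyads from 110779103 to 110779152 averaged 32.9%, 39.8%, 35.3% and 34.7% over the 11 libraries that read them, and the dyad at 110779060 averaged 33.4% over 5. At 110779152, inside the cyclic AMP response element, leukemic replicates 1 and 2 had 27.9% and 47.3% and replicate 3 was not read. The nonleukemic libraries had 48.0%, 29.7% and 5.13% there, the Tet2-/- libraries 22.9%, 17.1% and 63.0%, and the Nras G12D libraries 48.6%, 25% and 47.2%. All 4 groups overlapped. No promoter dyad was read in leukemic replicate 3, so the promoter was tested only in fits without that library. In the fit that left out leukemic replicate 3 alone, tile chr12:110779000-110779999, with reads pooled over 4 dyads, differed by -8.71 to 3.02 points over the 6 contrasts. The single dyads differed by -13.9 to 9.97 points. Neither the tile nor a dyad was called (quasi-binomial adjusted p = 0.882 to 1 for the tile).

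Over the 4 Meg3 dyads read in every library, window means were 41.5% ± 9.08 in leukemic, 36.6% ± 11.3 in nonleukemic, 50.6% ± 20.5 in Tet2-/- and 35.9% ± 5.22 in Nras G12D libraries (SD, n = 3 each). These means mix unlike dyads with equal weight. The dyad at 110764001 averaged 1.99%, and those at 110778801, 110778847 and 110778854 averaged 57.3%, 56.1% and 49.2%. All groups overlapped, and exact permutation tests gave p = 0.3 to 1 over the 6 contrasts. Without Tet2-/- replicate 2, which did not read the 5 highly methylated dyads near the start of the window, 9 dyads entered. The means were then 71.4% in leukemic, 70.7% in nonleukemic, 71.2% in Tet2-/- and 70.1% in Nras G12D libraries.

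**Figure D2:**
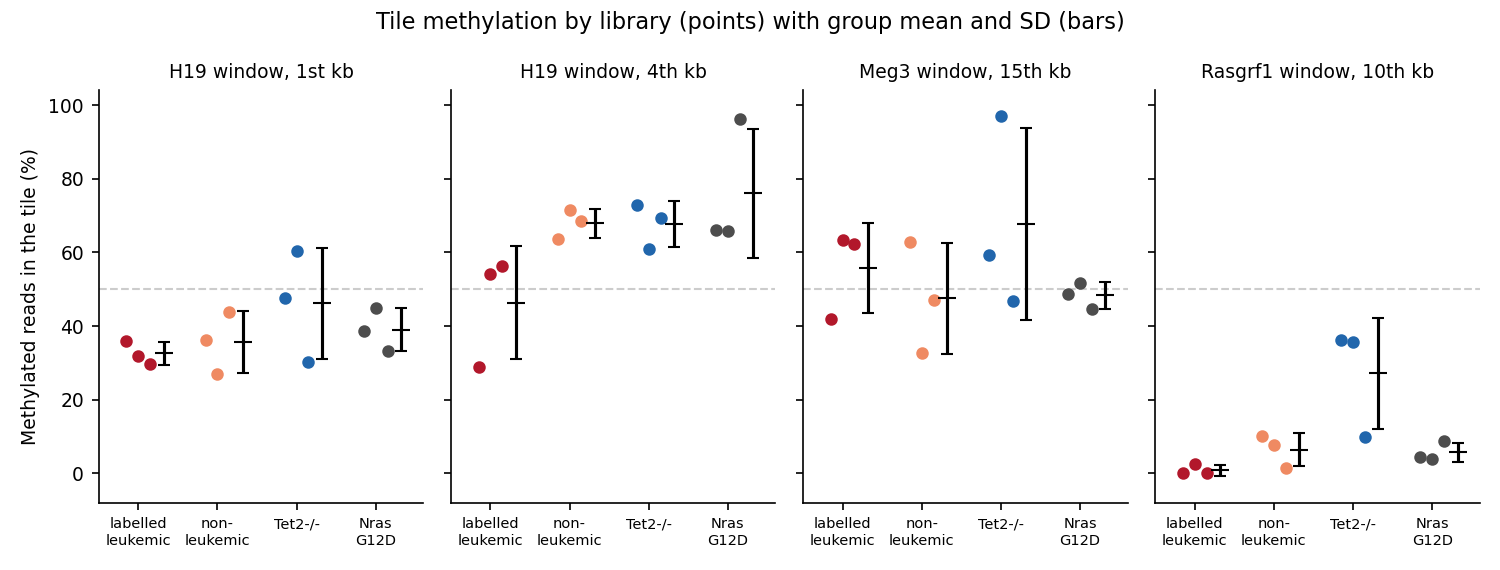
Methylated reads in percent (vertical axis) in the 4 testable 1 kb tiles, with the groups along the horizontal axis, 1 point per library, bars for the group mean and SD (n = 3 each) and a dashed line at 50%. The leukemic points lie below all others in the H19 tile that starts at 149767000 (28.8% to 56.4%) and at 0% to 2.57% in the Rasgrf1 tile, and 1 Tet2-/- library lies at 97.0% in the Meg3 tile.

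The Rasgrf1 window held the single call among the testable tiles of the 3 windows. The tile chr9:89769000-89769999 has 3 dyads read in every library, with 222 to 734 reads. Its level was 0%, 2.57% and 0% in leukemic libraries, 10.1%, 7.68% and 1.35% in nonleukemic, 36.2%, 35.6% and 9.77% in Tet2-/-, and 4.54%, 4.0% and 8.75% in Nras G12D libraries. The 2 leukemic values of 0 rest on 734 and 471 reads, which allow up to 0.409% and 0.637%. In all, 10 of the 12 libraries lay at or under 10.1%, and the highest reached 36.2%. Tet2-/- libraries stood above all leukemic and all Nras G12D libraries, and overlapped the nonleukemic ones. Against Nras G12D this rested on pooling the reads. With equal weights for the 3 dyads, Tet2-/- replicate 3 had 6.52% and Nras G12D replicate 3 had 8.92%, so these groups overlapped. Tet2-/- and Nras G12D libraries did not overlap at 11.4% of tiles in the genome.

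The means of this Rasgrf1 tile were 0.856% ± 1.48 in leukemic, 6.38% ± 4.52 in nonleukemic, 27.2% ± 15.1 in Tet2-/- and 5.76% ± 2.60 in Nras G12D libraries (SD, n = 3 each). It fell in leukemic relative to Tet2-/- libraries, by 26.3 points (quasi-binomial adjusted p = 0.00286), and was 1 of 4 window tiles called lower, against 7.52% of tiles in the genome. Tiles of similar level had a median difference of -1.75 points in that contrast. The difference rests on Tet2-/- replicates 1 and 2, which are also the Tet2-/- libraries with chromosome Y positions: without these and nonleukemic replicate 1 it was -8.92 points (adjusted p = 0.361), with the 1 remaining Tet2-/- library assumed to vary like the other groups. The difference passed when any single library was left out (quasi-binomial adjusted p 0.00213 to 0.0304). It also passed without leukemic replicate 3, Tet2-/- replicate 2 and Nras G12D replicate 3 (-21.7 points, quasi-binomial adjusted p = 0.0205). It missed the threshold when fitted on the 6 libraries of both groups alone (quasi-binomial adjusted p = 0.0895). Nonleukemic minus Tet2-/- was -20.8 points (unadjusted p = 0.000974, quasi-binomial adjusted p = 1), and Tet2-/- minus Nras G12D was 21.4 points (unadjusted p = 0.000613, adjusted p = 0.635). No tile of the genome was called for these contrasts, either here or by limma. The quasi-binomial fit put 797 tiles higher and 1925 lower in nonleukemic than in Tet2-/- libraries with an unadjusted p below 0.05, and 4068 higher and 763 lower in Tet2-/- than in Nras G12D libraries. The comparisons share the Tet2-/- libraries.

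Among the 3 dyads of the Rasgrf1 tile read in every library, chr9:89769488 had the highest mean over libraries, 15.2% against 6.88% and 3.50%. It had 110 to 357 reads. Leukemic libraries had 0%, 1.98% and 0% there, nonleukemic 13.1%, 12.7% and 1.82%, Tet2-/- 48.7%, 67.3% and 19.5%, and Nras G12D 4.94%, 8.08% and 4.35%. Each Tet2-/- library lay above every other library, as at 0.27% of the dyads read in every library of the series. Leukemic libraries averaged 0.659% ± 1.14 and Tet2-/- libraries 45.2% ± 24.1 (SD, n = 3 each), and the difference of -44.5 points did not pass over all dyads (quasi-binomial adjusted p = 0.0734). It passed in limma on the log2 ratio of methylated to unmethylated reads (adjusted p = 0.0381). At the dyads on either side, 89769450 and 89769529, Tet2-/- libraries had 27.8%, 16.7% and 0%, and 21.1%, 0% and 0%. They overlapped every other group at both of these dyads. Nras G12D libraries had 7.02%, 0% and 22.4% at 89769450, and their mean of 9.81% there lay above their 5.79% at 89769488.

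The Rasgrf1 dyads upstream and downstream of that tile were read in fewer libraries. The pair at 89772915 and 89772934 averaged 50.2% and 44.7% over 9 libraries, with 0% at both on 39 reads in leukemic replicate 3, which allows up to 7.69%, and 100% at both in Tet2-/- replicate 2. The pair at 89773114 and 89773152 averaged 60.4% and 59.5% over 8 libraries, all of which lay between 39.3% and 75%. The other 12 of the 19 Rasgrf1 dyads were read in 1 library only. The tiles starting at 89760000, 89763000 and 89768000 held only such dyads, at 100%. The tiles starting at 89767000 and 89776000 had 0% on 17 and 10 reads, which allows up to 17.6% and 30%. The 3 dyads read in every library all lie in the tile starting at 89769000, which was not near 50%. Over these 3 dyads, window means were 0.833% ± 1.44 in leukemic, 5.57% ± 4.0 in nonleukemic, 22.4% ± 13.9 in Tet2-/- and 5.37% ± 3.20 in Nras G12D libraries (SD, n = 3 each). Leukemic libraries did not overlap Tet2-/- or Nras G12D libraries (exact permutation p = 0.1 each, adjusted 0.3), and these pairs of groups did not overlap at 21.4% and 17.6% of tiles in the genome. All other pairs of groups overlapped in these means, including Tet2-/- and Nras G12D.

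The libraries spread widely in the testable tiles of the windows. The range over 12 libraries was 33.3 and 67.6 points in the H19 tiles, 64.2 points in the Meg3 tile and 36.2 points in the Rasgrf1 tile. Tiles of the series within 5 points of the same mean had median ranges of 36.9, 33.6, 39.1 and 13.8 points. The first H19 tile thus lay slightly under its median, and the other 3 tiles lay above theirs. Over the 4298 intermediate tiles the median range was 37.2 points, with quartiles of 27.7 and 48.3 points.

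**Figure D3:**
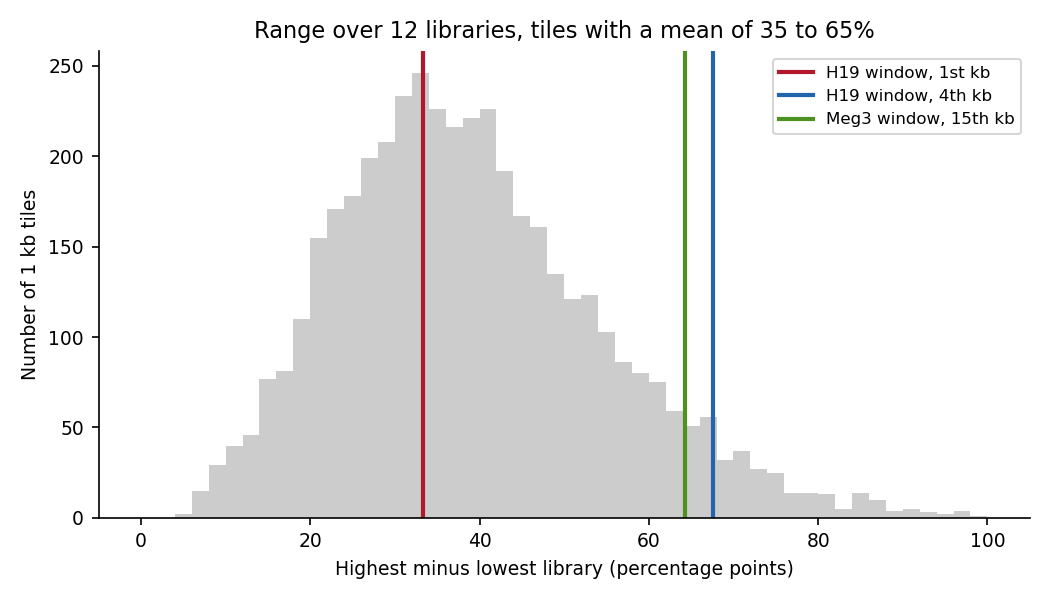
Number of 1 kb tiles (vertical axis) by the range between the highest and the lowest of 12 libraries in percentage points (horizontal axis), for the 4298 tiles with a mean of 35% to 65%. Vertical lines mark the H19 tiles at 33.3 and 67.6 points and the Meg3 tile at 64.2 points, the first near the middle of the distribution and the other 2 in its upper tail.

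Strands of the same dyad gave a second reading of each library, since forward and reverse reads come from opposite strands and are counted apart. Of the dyads in the windows, 9 had reads on both strands and a level of 20% to 80% over both together in some library. These gave 41 pairs with a median difference of 15 points, and 9 pairs differed by over 25 points. The largest difference among these pairs, 77.4 points, was at H19 149767092 in Tet2-/- replicate 3, with 77.4% of 62 forward reads and 0% of 18 reverse reads methylated, which allows up to 16.7%. Outside that level, the Meg3 dyad 110780016 in leukemic replicate 1 had 100% of 55 forward reads and 0% of 10 reverse reads methylated, which allows up to 30%. At H19 149764109 in Tet2-/- replicate 2 the forward strand had 81.3% of 91 reads methylated and the reverse strand 26.9% of 78. At the Rasgrf1 dyad 89769488 in the same library the forward strand had 19.4% of 31 reads methylated and the reverse strand 86.1% of 79, so the level of that library there rests mainly on its reverse strand. The same class was read over all autosomes: dyads with at least 10 reads on each strand and a level of 20% to 80%. A library had 13410 to 28858 such dyads, and their median strand difference was 20.8 to 51.4 points. The median SD expected from the read counts alone was 7.42 to 10.9 points. The 5 libraries with most flips had the 5 largest medians, 38.1 to 51.4 points, against 20.8 to 26.8 points in the other 7 libraries. In the windows, neighbouring CpGs under 50 bases apart on 1 strand differed by a median of 4.55 points over 313 pairs. Of these pairs, 285 had coverage equal within 10%, so neighbours mostly share their reads and are not separate measurements.

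**Figure D4:**
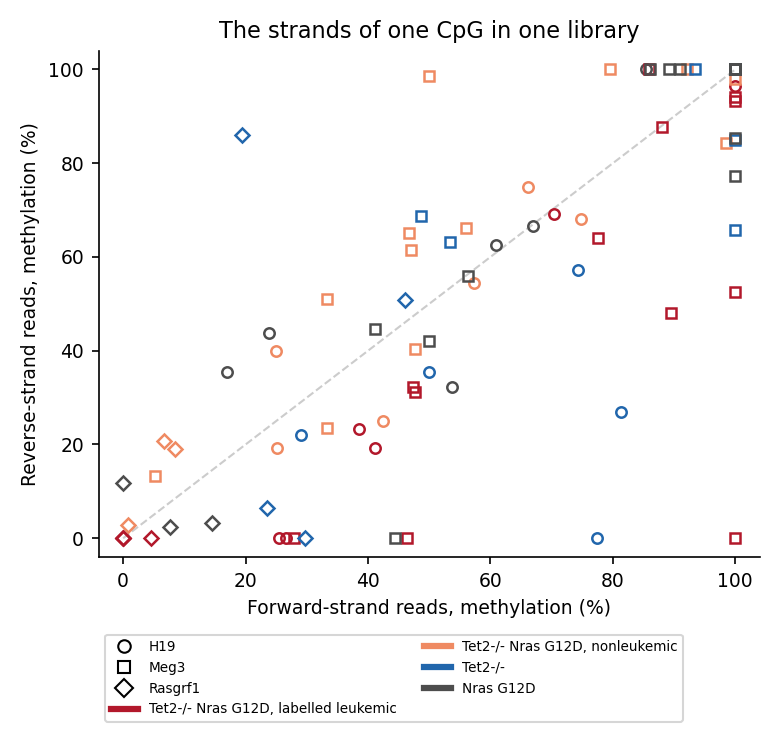
Reverse-strand methylation (vertical axis, percent) against forward-strand methylation (horizontal axis, percent) for each dyad and library with both strands read in the 3 windows. Shapes mark the window, colours the group, and the dashed line equal strands. Points far from the line are dyads whose strands differ, such as the Rasgrf1 dyad of a Tet2-/- library at 19.4% and 86.1%.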

How the data were processed

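Reduced-representation bisulfite sequencing libraries of mouse LSK cells were used, 12 in 4 groups of 3. The submitters' processing notes name Bismark and build mm9 (NCBIM37). The submitters' protocol states fragments of 150 to 400 bp and 50-base reads. The deposited files list positions with a coverage count of at least 10 reads and the percent of C and of T reads, per the file headers. Methylated reads were recovered by multiplying coverage by percent, and reads of another base (1.11% to 2.77% of positions had any) were removed. Conversion controls are not given in the sources used here. Methylation on chromosome M, mostly unmethylated in mammals, was 0.222% to 1.00%.

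Strands were summed to dyads. Dyads with 10 or more reads in every library and at most the 99.9th percentile of coverage entered 1 kb tiles of at least 3 dyads. All 81040 tiles and 916381 dyads were fitted with a quasi-binomial model of 4 group means and a moderated dispersion (NumPy 2.4.6, SciPy 1.17.1, checked against limma 3.58.1 in R 4.3.3 and on simulated data). A call needed a Benjamini-Hochberg adjusted p under 0.05 and a difference of at least 10 points for tiles or 25 points for dyads. Window means were compared by two-sided exact permutation tests. The members and lists were chosen with earlier results of these data known. Every tile of the windows was to be named, with dyads named when called, and otherwise the dyad of each window with the largest group difference. Other dyads were named after their values were seen. Alternatives changed the coverage minimum, dyads, weights, strands, test, tile grid, libraries and replicate block. The Meg3 promoter comes from RefSeq, and no mm9 genome or annotation was used here, so exon and intron positions are not given.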

Additional observations from a re-analysis of the deposited data

How the results depend on the processing

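Under the alternatives, 222 of 234 window differences, 130 of 135 counts of called tiles, 121 of 123 counts of called dyads and 180 of 187 named tile differences kept their direction and their side of the threshold or moved within the replicate spread. Window means moved to the following differences in points. Without the 3 libraries with chromosome Y positions, leukemic minus Tet2-/- was -14.0 at H19 and -5.68 at Rasgrf1, nonleukemic minus Tet2-/- was -2.70 at Rasgrf1, and Tet2-/- minus Nras G12D was -2.66 at Meg3 and 1.14 at Rasgrf1. With reads pooled over dyads, leukemic minus Nras G12D was -12.1 and nonleukemic minus Nras G12D -1.47 at H19. With every dyad read in any library, leukemic minus Nras G12D was -3.34 at Meg3 and -21.5 at Rasgrf1, leukemic minus Tet2-/- was -33.3 and nonleukemic minus Nras G12D -15.2 at Rasgrf1. In this setting each library was averaged over the dyads it listed, so these differences compare different dyads. At Rasgrf1, 12 of the 19 dyads were read in 1 library only. In this section, the libraries with most flips are leukemic replicate 3, Tet2-/- replicate 2 and Nras G12D replicate 3, each the highest of its group. Leukemic replicate 1, with 1015 flips, was kept in that setting. Without the libraries with most flips, leukemic minus Nras G12D was -2.59 at Meg3. Leaving out libraries also let more dyads in. The Meg3 window held 9 dyads without the chromosome Y libraries and 13 without the libraries with most flips, against 4. The H19 window held 11 without the chromosome Y libraries, against 10. The Meg3 tile reversed without the chromosome Y libraries, to 8.88 for leukemic minus Tet2-/- and -1.42 for Tet2-/- minus Nras G12D. With libraries left out in turn, leukemic minus Tet2-/- spanned -22.4 to 2.66 there. The main model called 1 of 4 tiles lower in leukemic minus Tet2-/- (7.52% of all tiles). That count was 0 of 4 in the fit of 2 groups (0.0680%), 0 of 5 without the chromosome Y libraries (0.0315%), 0 of 2 with tiles shifted by 500 bp (7.41%), where the Rasgrf1 dyads were split over 2 tiles too small to test, and 2 of 6 without the libraries with most flips (6.37%). Leukemic minus nonleukemic had 1 of 6 tiles called lower without the libraries with most flips (7.05%), against 0 of 4 (3.88%). Called dyads in leukemic minus Tet2-/- were 1 of 17 in limma (0.127% of all dyads called lower) and 1 of 17 with the replicate block (0.253%), against 0 (0.0457%). Apart from the shifted grid, the cause of these changes was not tested. Replicate numbers did not pair the libraries (18 same-numbered pairs, correlations -0.0361 to 0.0405). With the block the Rasgrf1 tile stayed called in leukemic minus Tet2-/- (adjusted p = 0.0132) and its dyad 89769488 passed (adjusted p = 0.0247). Depth limits single dyads most: with as few as 10 reads their intervals reach 52.7 points.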

Other observations

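Downstream of the Meg3 promoter, the dyads at chr12:110779507, 110779509 and 110779525 were read in 9 libraries and averaged 47.8%, 17.4% and 45.6%. The middle dyad was lower than both neighbours in several libraries, although the 3 lie within 1 read length. In leukemic replicates 1, 2 and 3 the middle dyad had 0% on 43, 21 and 41 reads, which allows up to 6.98%, 14.3% and 7.32%, while the neighbour at 110779507 had 22.0%, 19% and 100%. Nras G12D replicate 3 also had 0% at the middle dyad, on 42 reads, which allows up to 7.14%, and 20% at the neighbour. In Tet2-/- replicate 1 the middle dyad had 35% and the neighbour 85.0%, and in Nras G12D replicate 1 they had 30.0% and 95.0%. In nonleukemic replicate 1 they had 9.68% and 12.9%. In nonleukemic replicates 2 and 3 the middle dyad had 48.3% and 34.0%, close to 48.1% and 28.6% at the neighbour. These dyads were chosen after their values were seen. They entered a test only in the fit of leukemic and nonleukemic libraries alone, where none was called: leukemic minus nonleukemic was -30.7 points at the middle dyad (unadjusted p = 0.00852, quasi-binomial adjusted p = 0.600).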
